A study of Homo sapiens with 84 samples.

Results

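Kyse30 cells and FaDu cells were compared as they stood before any growth factor was given, in the control libraries taken at 6 h. Kyse30 derives from an esophageal and FaDu from a pharyngeal squamous carcinoma. The libraries were chosen by their labels: 6 Kyse30 libraries (3 untreated and 3 given Fc, numbered 1, 3 and 4) and 4 FaDu libraries (2 untreated and 2 given Fc, numbered 3 and 4), 10 of the 84 libraries of the series. Fc is the recombinant Fc region of an immunoglobulin, used in the study as the control for a fusion of Fc with the EpCAM ectodomain. All 10 cultures had been put into serum-free medium 24 h before the treatment began and stayed in it to the end. The study set out to follow EGF and EpCAM ectodomain responses in these lines over time, and the comparison here asks where the lines differ before such a response. Each tissue is represented by 1 line, so line, tissue of origin, donor, growth medium (passaged in DMEM or RPMI, with no label saying which line had which) and any batch of culture or library cannot be told apart. No label says whether libraries of one group came from separate cultures, so the p-values below measure the spread between these libraries, which may be partly technical.

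Stratified squamous epithelium is built on basal cells that make the keratin pair KRT5 and KRT14, hold to the basement membrane through hemidesmosomes (the integrin ITGA6 with ITGB4, collagen XVII and laminin 5), and hold to each other through desmosomes, adherens junctions and tight junctions. As these cells move upwards they switch to other keratins and assemble a cornified envelope. Simple epithelia use KRT8, KRT18 and KRT19 instead, and carcinoma lines often mix these programmes. EGFR, the receptor for EGF, TGFA, AREG and EREG, drives growth and migration of such cells through ERK, and ERK in turn induces its own inhibitors.

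Reads were counted per gene from the 3′ end of transcripts. Kyse30 libraries held 4546701 to 8624072 counts on genes and FaDu libraries 7889819 to 9618224. Reads that matched several places made up 29.6 to 38.8% in Kyse30 and 46.8 to 50.2% in FaDu, and counts on mitochondrial genes 6.96 to 12.9% and 8.51 to 10.99%. The 2 Kyse30 libraries numbered 1 had the lowest mitochondrial shares of that line. The FaDu libraries numbered 1 and 2 stand apart and are outside the comparison: of the 79 genes described below as read in Kyse30 and nearly unread in FaDu, 47, 29, 38 and 39 reached 1 CPM in their 4 control libraries at 6 h. The cause was not tested, and neither was whether the libraries labelled FaDu 1 and 2 and those labelled FaDu 3 and 4 hold the same cells (a mixed culture or an exchanged library included), so FaDu below stands for the libraries numbered 3 and 4. With these 4 libraries added to FaDu, 2949 genes were called (1153 higher in Kyse30 and 1796 in FaDu), and named genes whose direction then turned are marked below. A further 66 named genes lost their call and are not marked one by one. The lack of a mark therefore does not mean that a gene kept its call. All 12 squamous markers were read in both lines, with a summed level of 1132 to 1834 CPM in Kyse30 and 1562 to 2080 CPM in FaDu. The summed markers of fibroblasts (14.5 to 44.2 and 8.47 to 15.98 CPM), immune cells (0.573 to 3.35 and 0.356 to 1.33 CPM), endothelium (0.740 to 4.87 and 2.90 to 8.18 CPM) and neuroendocrine cells (0.157 to 3.58 and 0.483 to 3.92 CPM) were low, and those of columnar epithelium stayed under 0.430 CPM in every library, with 10 of 10 at 3 counts or fewer. In such bulk samples, fewer cells of a kind and less RNA per cell cannot be told apart.

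The lines differed at about every other gene tested. Of 13156 genes tested, 6621 (50.3%) passed an adjusted p of at most 0.05 with an absolute log2 fold change over 0.5, the thresholds of the study: 3578 (27.2%) were higher in Kyse30 and 3043 (23.1%) higher in FaDu. A 4-fold or larger difference that passed the test was found for 1961 genes (14.9%), 1299 (9.87%) higher in Kyse30 and 662 (5.03%) higher in FaDu. This count was 3172 without the filter on low counts, 1081 at a mean of at least 5 CPM and 823 with FaDu replicates 1 and 2 added. For 5521 genes (42%) the 6 Kyse30 libraries and the 4 FaDu libraries did not overlap, and 5174 (39.3%) both passed the test and did not overlap. Fold changes below are log2 values of Kyse30 over FaDu (log2FC, positive where Kyse30 was higher) with their standard errors, from edgeR's quasi-likelihood test with Benjamini-Hochberg adjustment over all genes tested. Their median over all genes was 0.04 and the median of their absolute size 0.71. Levels are CPM (counts per 1e+06 counts of the library), given as the lowest, the median and the highest of the 6 Kyse30 libraries and as the 4 FaDu values in the order untreated 3, Fc 3, untreated 4 and Fc 4. Untreated and Fc libraries were pooled by the definition of the comparison. Fc had no called gene against untreated cells over both lines, by edgeR (287 genes at an unadjusted p under 0.05) or DESeq2 (512 genes). With the replicate number within each line as a block, edgeR also called 0 genes (827 at an unadjusted p under 0.05). A gene list is described below by its counts in each direction, to be read against the 27.2% and 23.1% of all genes, and by its median log2FC, to be read against 0.04. List members nearly unread in one line passed the filter on low counts through the other line, and a call was then nearly certain. Counts of a list that holds such members are a description and are not to be read against these shares.

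**Figure D1:**
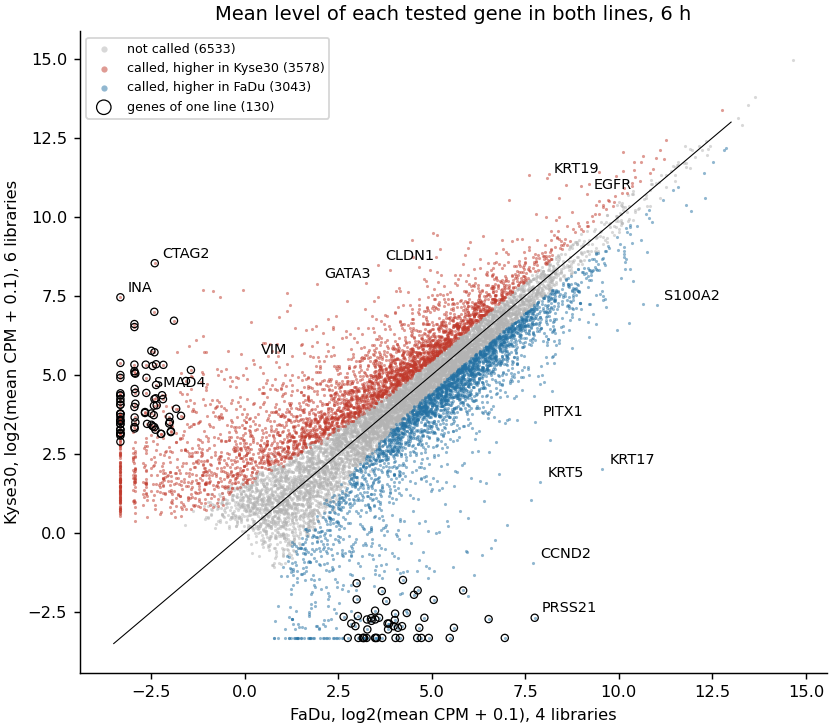
Log2 of the mean CPM of tested genes in the 4 FaDu libraries (x axis) against the 6 Kyse30 libraries (y axis), with genes that passed the test coloured by the line in which they were higher. Of 13156 genes tested, 3578 were called higher in Kyse30 and 3043 in FaDu, and not every tested gene is drawn. Genes near an axis are read in nearly one line alone.

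The keratins divided the lines plainly. FaDu held the basal and stress keratins, and Kyse30 held far more of the simple epithelial keratins. Of the 4 basal keratins tested, 3 were higher in FaDu and 0 in Kyse30 (median log2FC -5.10), and all 4 stress keratins were higher in FaDu. Of the 5 simple keratins, 4 were higher in Kyse30 and 1 in FaDu (median 2.21).

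KRT17, a basal keratin made by activated and carcinoma keratinocytes, was at 1.10, 4.21 and 5.84 CPM in Kyse30 and 617, 606, 914 and 881 CPM in FaDu (log2FC = -7.53 ± 0.28, adjusted p = 2.7e-13). Every FaDu library was far above every Kyse30 library. KRT5, the type II keratin of basal cells, was at 0.863, 2.31 and 8.14 CPM in Kyse30 and 212, 252, 206 and 287 CPM in FaDu (log2FC = -6.36 ± 0.34, adjusted p = 3.3e-11). Its partner KRT14 was at 0, 0.98 and 1.57 CPM in Kyse30 and 11.8, 27.1, 7.85 and 8.58 CPM in FaDu (log2FC = -3.85 ± 0.53, adjusted p = 7.4e-06), again with no overlap. KRT15, the other basal keratin tested, overlapped between the lines at 38.6, 50.8 and 84.2 CPM in Kyse30 and 62.6, 63.8, 61.1 and 76.3 CPM in FaDu (log2FC = -0.21 ± 0.20, adjusted p = 0.388). KRT16, a keratin of wounded and hyperproliferative epidermis, was at 2.15, 6.96 and 7.96 CPM in Kyse30 and 59.8, 69.03, 70.4 and 68.1 CPM in FaDu (log2FC = -3.4995 ± 0.28, adjusted p = 5.2e-09). KRT6B, which pairs with it, was at 0, 0.0749 and 1.95 CPM in Kyse30 and 14.1, 20.96, 11.5 and 7.96 CPM in FaDu (log2FC = -5.01 ± 0.70, adjusted p = 8.4e-06). KRT6A, by contrast, overlapped at 9.59, 17.4 and 29.1 CPM in Kyse30 and 30.04, 51.8, 25.2 and 16.8 CPM in FaDu (log2FC = -0.79 ± 0.30, adjusted p = 0.0326) and no longer passed the test when untreated and Fc libraries of a number were summed (adjusted p = 0.088). KRT6A, KRT6B and KRT6C, and likewise KRT14, KRT16 and KRT17, are close copies of each other, so reads may have been shared out between them or lost as matching several places.

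KRT8 and KRT18, the keratin pair of simple epithelia, were both higher in every Kyse30 library than in any FaDu library. KRT8 was at 1036, 1692 and 1741 CPM in Kyse30 and 354, 364, 296 and 343 CPM in FaDu (log2FC = 2.21 ± 0.16, adjusted p = 1.6e-09). KRT18 was at 2428, 2666 and 3421 CPM in Kyse30 and 721, 683, 697 and 717 CPM in FaDu (log2FC = 1.9984 ± 0.13, adjusted p = 4.9e-10). KRT19, a small keratin of simple and basal cells, was at 1581, 2111 and 3448 CPM in Kyse30 and 202, 190.5, 317 and 365 CPM in FaDu (log2FC = 3.19 ± 0.24, adjusted p = 3.1e-09). The FaDu libraries numbered 4 held more KRT19 than those numbered 3, still far under the lowest Kyse30 library. KRT23, a type I keratin, was at 15.4, 17.7 and 31.7 CPM in Kyse30 and 0, 0.511, 0 and 0 CPM in FaDu (log2FC = 7.26 ± 0.60, adjusted p = 1.0e-08), with 4 counts in FaDu in all. KRT7, a further simple keratin, went the other way at 51.8, 74.5 and 83.5 CPM in Kyse30 and 162, 154, 174 and 216 CPM in FaDu (log2FC = -1.26 ± 0.14, adjusted p = 7.4e-07). Among suprabasal keratins, KRT13, the keratin of internal stratified epithelia such as the esophagus, was higher in Kyse30 at 139.6, 176 and 266 CPM in Kyse30 and 45.6, 56.5, 29.2 and 24.8 CPM in FaDu (log2FC = 2.28 ± 0.23, adjusted p = 1.3e-07). KRT1, the suprabasal keratin of epidermis, had 1 count in all Kyse30 libraries and 10.8, 33.5, 10.4 and 8.06 CPM in FaDu, and the Fc 3 library held the most. It was at 0, 0, 0.0475 and 0.0971 CPM in the FaDu libraries untreated 1, Fc 1, untreated 2 and Fc 2.

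**Figure D2:**
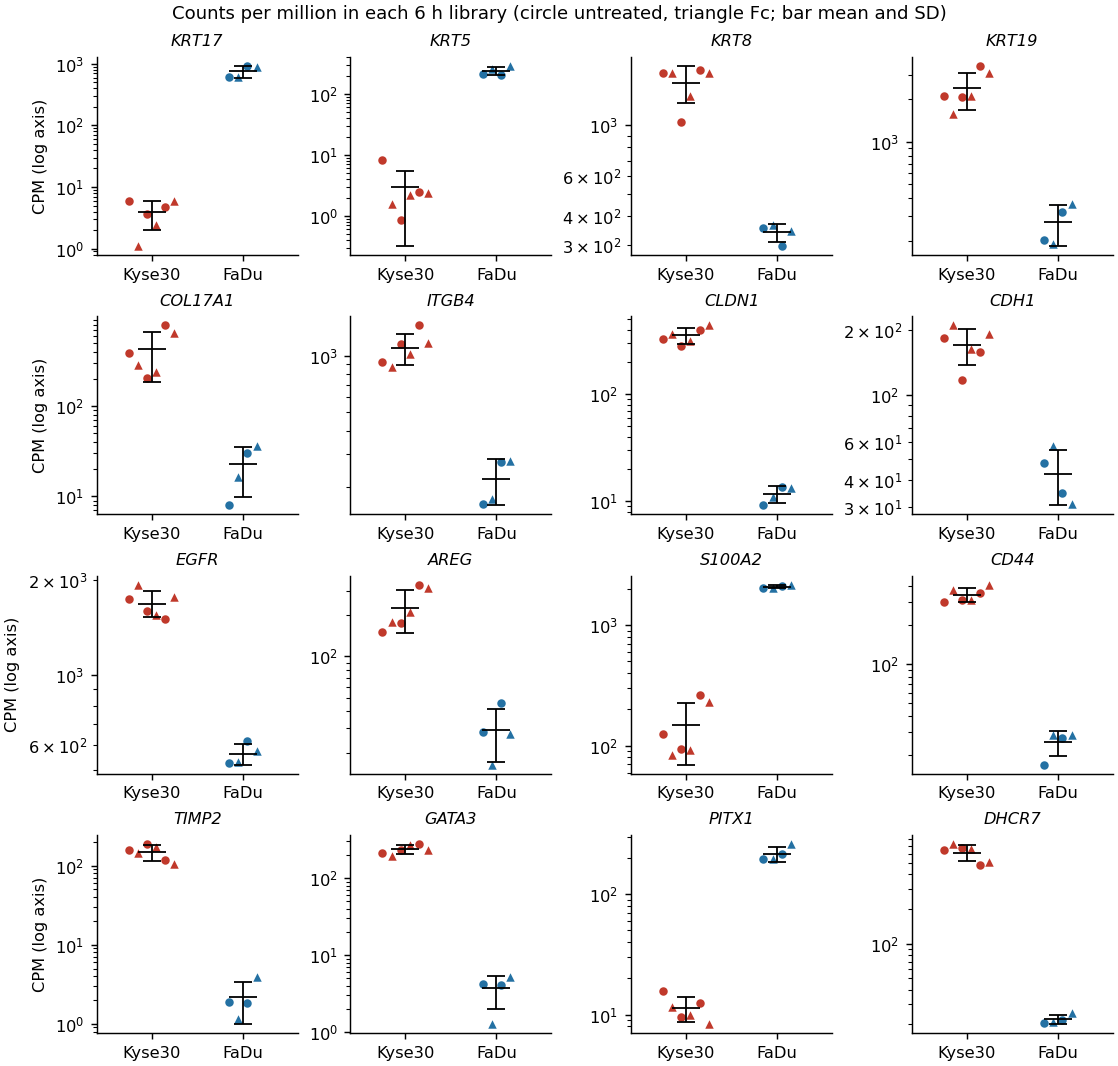
CPM on a log axis of 16 genes in each of the 10 libraries, by line and treatment. KRT17, KRT5, S100A2 and PITX1 are higher in every FaDu library, and the other 12 genes are higher in every Kyse30 library.

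Cornified envelope genes were on balance higher in FaDu, with exceptions that include involucrin. Of 19 tested, 11 were higher in FaDu and 3 in Kyse30 (median -2.01). CSTA, a cysteine protease inhibitor of the envelope, was at 0.892, 1.54 and 4.25 CPM in Kyse30 and 184, 199.9, 209 and 218 CPM in FaDu (log2FC = -6.65 ± 0.24, adjusted p = 2.7e-13). S100A8, a calcium-binding alarmin of stressed keratinocytes, was at 0, 0.572 and 1.12 CPM in Kyse30 and 69.9, 84.9, 54.2 and 30.3 CPM in FaDu (log2FC = -6.69 ± 0.45, adjusted p = 5.9e-10). PI3, the elastase inhibitor elafin, had 4 counts in Kyse30 in all and was at 20.7, 35.8, 13.7 and 8.89 CPM in FaDu (log2FC = -7.34 ± 0.67, adjusted p = 3.4e-08). In these 3 genes the lines did not overlap, and in S100A8 and PI3 the FaDu libraries themselves spread more than in CSTA. DMKN, a secreted protein of the upper epidermis, was at 16.5, 22.9 and 31.4 CPM in Kyse30 and 153, 151, 193 and 189 CPM in FaDu (log2FC = -2.88 ± 0.17, adjusted p = 1.2e-10). IVL, involucrin, an early scaffold of the envelope, was higher in Kyse30 at 11.3, 15.6 and 23.2 CPM in Kyse30 and 2.02, 1.15, 0.604 and 1.14 CPM in FaDu (log2FC = 3.70 ± 0.38, adjusted p = 2.1e-07). SPRR3, a small proline-rich envelope protein of internal epithelia, was also higher there at 21.4, 49.8 and 72.5 CPM in Kyse30 and 8.43, 19.9, 9.18 and 5.89 CPM in FaDu (log2FC = 2.22 ± 0.36, adjusted p = 4.0e-05). The SPRR2 genes are close copies of each other, so their single values are uncertain and are not given.

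The S100 family split evenly, with 6 of 13 tested genes higher in each line. S100A2, a p63-responsive member found in basal squamous cells, was at 84.3, 109.8 and 263 CPM in Kyse30 and 2034, 2024, 2090.1 and 2158 CPM in FaDu (log2FC = -3.78 ± 0.27, adjusted p = 1.9e-09). S100A6, a member of proliferating and migrating cells, was the mirror image at 1599, 2582 and 3504 CPM in Kyse30 and 207, 239, 161 and 170.1 CPM in FaDu (log2FC = 3.75 ± 0.21, adjusted p = 6.2e-11). The lines did not overlap in either gene, and both were abundant in the line where they were high. Over the 12 squamous markers, 8 were higher in FaDu and 3 in Kyse30 (median -0.83). TP63, which encodes the master regulator of squamous epithelium, overlapped at 11.3, 20.8 and 28.7 CPM in Kyse30 and 43.2, 44.1, 31.7 and 26.8 CPM in FaDu (log2FC = -0.82 ± 0.24, adjusted p = 0.00673). SERPINB5, a serpin of epithelial cells, was higher in Kyse30 at 60.02, 77.3 and 104 CPM in Kyse30 and 5.58, 9.59, 11.2 and 8.37 CPM in FaDu (log2FC = 3.20 ± 0.22, adjusted p = 1.1e-09). It turned to a log2FC of -0.16 with the FaDu libraries numbered 1 and 2 added. PERP, a desmosomal p63 target, was higher in Kyse30 at 548, 625 and 774 CPM in Kyse30 and 326, 352, 313 and 309 CPM in FaDu (log2FC = 1.01 ± 0.13, adjusted p = 3.3e-06), and SFN, the 14-3-3 protein of stratified epithelium, overlapped at 385, 694 and 929.7 CPM in Kyse30 and 223, 197, 418 and 404 CPM in FaDu (log2FC = 1.19 ± 0.25, adjusted p = 4.7e-04).

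All 9 hemidesmosome and laminin 5 genes were higher in Kyse30, and in each of them the libraries of the lines did not overlap (median log2FC 2.24). COL17A1, the transmembrane collagen of the hemidesmosome, was at 207, 337 and 788 CPM in Kyse30 and 7.96, 16.2, 30.4 and 36.2 CPM in FaDu (log2FC = 4.26 ± 0.45, adjusted p = 2.4e-07). ITGA6, the integrin chain that binds laminin 5, was at 514, 703 and 751 CPM in Kyse30 and 74.8, 80.02, 81.4 and 92.6 CPM in FaDu (log2FC = 3.06 ± 0.15, adjusted p = 9.1e-12). ITGB4, its partner chain, was at 875, 1083 and 1448 CPM in Kyse30 and 163, 174, 272 and 277 CPM in FaDu (log2FC = 2.34 ± 0.19, adjusted p = 6.4e-09). All 6 Kyse30 libraries held more than 3 times the ITGB4 level of the highest FaDu library. Chains of laminin 5 also stood apart. LAMA3 was at 23.7, 29.2 and 42.1 CPM in Kyse30 and 1.90, 1.41, 4.83 and 4.34 CPM in FaDu (log2FC = 3.31 ± 0.34, adjusted p = 1.6e-07). LAMB3 was at 54.6, 93.3 and 129.8 CPM in Kyse30 and 39.8, 34.9, 37.1 and 41.95 CPM in FaDu (log2FC = 1.36 ± 0.21, adjusted p = 2.0e-05). The intracellular plaque differed less, with PLEC (plectin) at 226, 253 and 351 CPM in Kyse30 and 123, 109.8, 181 and 202 CPM in FaDu (log2FC = 0.82 ± 0.17, adjusted p = 5.9e-04) and DST, which encodes the epithelial form BPAG1 among others, at 521, 665 and 1376 CPM in Kyse30 and 428, 395, 371 and 386 CPM in FaDu (log2FC = 1.12 ± 0.24, adjusted p = 7.6e-04). With the FaDu libraries numbered 1 and 2 added, LAMA3 had a log2FC of -0.82 and LAMB3 of -0.16. CD151, the tetraspanin that travels with these integrins, had the smallest difference of the list at 145, 153 and 205 CPM in Kyse30 and 90.8, 105, 119 and 108 CPM in FaDu (log2FC = 0.66 ± 0.14, adjusted p = 4.6e-04).

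Among the 32 genes of adherens and tight junctions, 12 were higher in Kyse30 and 1 in FaDu (median 0.35). CLDN1, a barrier-forming claudin, was at 281, 343 and 439 CPM in Kyse30 and 9.14, 10.99, 13.5 and 13.2 CPM in FaDu (log2FC = 4.94 ± 0.19, adjusted p = 4.0e-13). CLDN4, a claudin of simple and stratified epithelia, was at 431, 614 and 749.8 CPM in Kyse30 and 109, 109, 121 and 129 CPM in FaDu (log2FC = 2.43 ± 0.16, adjusted p = 4.2e-10). CDH1, E-cadherin, was at 116.99, 173 and 210.1 CPM in Kyse30 and 48.3, 57.5, 34.8 and 30.9 CPM in FaDu (log2FC = 2.02 ± 0.20, adjusted p = 9.5e-08). In all 3 genes the lowest Kyse30 library was above the highest FaDu library. TJP3, a scaffold of tight junctions, was at 18.2, 23.96 and 39.8 CPM in Kyse30 and 1.66, 2.68, 1.21 and 2.07 CPM in FaDu (log2FC = 3.77 ± 0.32, adjusted p = 1.4e-08). EPCAM, which encodes the cell adhesion protein whose ectodomain the study used as a ligand, was the gene of this list that was higher in FaDu, at 200.2, 210.2 and 296 CPM in Kyse30 and 403, 431, 404 and 448 CPM in FaDu (log2FC = -0.82 ± 0.14, adjusted p = 6.6e-05). Of 10 desmosome genes, 4 were higher in Kyse30 and 2 in FaDu. JUP, plakoglobin, was at 379, 478 and 517 CPM in Kyse30 and 145, 131, 125 and 124 CPM in FaDu (log2FC = 1.82 ± 0.14, adjusted p = 2.5e-09). PKP1, a plakophilin of stratified epithelium, was at 0, 0.235 and 1.77 CPM in Kyse30 and 4.87, 8.44, 2.54 and 2.38 CPM in FaDu (log2FC = -2.82 ± 0.77, adjusted p = 0.00454). Both differences held without overlap, in opposite directions. Of the 10 other integrins, 6 were higher in Kyse30 and 2 in FaDu (median 1.63), with ITGA2, the collagen-binding chain, at 231, 312 and 359 CPM in Kyse30 and 29.3, 37.7, 34.6 and 39.6 CPM in FaDu (log2FC = 3.14 ± 0.17, adjusted p = 3.6e-11).

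EGFR and some of its ligands were higher in Kyse30. Of 12 receptors, ligands and regulators tested, 5 were higher in Kyse30 and 2 in FaDu (median 0.35). EGFR was at 1508, 1673 and 1935 CPM in Kyse30 and 527, 530.2, 617 and 575 CPM in FaDu (log2FC = 1.61 ± 0.12, adjusted p = 3.4e-09), and every Kyse30 library was far above every FaDu library. AREG, amphiregulin, was at 151, 193 and 332.3 CPM in Kyse30 and 28.1, 16.4, 45.9 and 27.4 CPM in FaDu (log2FC = 2.97 ± 0.28, adjusted p = 6.1e-08). EREG, epiregulin, was at 45.4, 50.7 and 70.7 CPM in Kyse30 and 0.356, 1.02, 2.30 and 2.58 CPM in FaDu (log2FC = 5.11 ± 0.35, adjusted p = 7.3e-10). TGFA, a ligand that binds EGFR alone, was at 28.5, 36.9 and 48.99 CPM in Kyse30 and 11.99, 16.2, 22.2 and 20.5 CPM in FaDu (log2FC = 1.10 ± 0.22, adjusted p = 3.4e-04). The lines did not overlap in any of these 4 genes. NRG4, a ligand of ERBB4, was at 2.43, 4.92 and 10.7 CPM in Kyse30 and 0.119, 0, 0.604 and 0.207 CPM in FaDu (log2FC = 4.62 ± 0.76, adjusted p = 5.2e-05), with 8 counts in FaDu in all. LRIG1, which removes EGFR from the surface, was read in FaDu and had 3 counts in all 6 Kyse30 libraries, with 9.86, 6.52, 2.54 and 2.58 CPM in FaDu. The FaDu mean was higher by a ratio of 68.6 (95% counting interval 23.5 to 332.5). BTC, betacellulin, was at 0, 0.523 and 2.10 CPM in Kyse30 and 2.97, 2.81, 2.42 and 3.82 CPM in FaDu (log2FC = -1.86 ± 0.70, adjusted p = 0.0309), a difference that did not pass the test once untreated and Fc libraries of a number were summed (adjusted p = 0.095). AREG turned to a log2FC of -1.48 with the FaDu libraries numbered 1 and 2 added. The co-receptors ERBB2 (log2FC = -0.17 ± 0.19, adjusted p = 0.46) and ERBB3 (log2FC = 0.44 ± 0.17, adjusted p = 0.0362) overlapped between the lines and were not called, the second because its log2FC was under 0.5.

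Of 17 genes that ERK signalling induces, most of them its own inhibitors, 10 were higher in Kyse30 and 3 in FaDu (median 0.73), and 7 and 1 once the untreated and Fc libraries of a number, which deviated together, were summed. DUSP4, a phosphatase that inactivates ERK in the nucleus, was at 102, 127 and 135 CPM in Kyse30 and 18.2, 15.2, 23.8 and 31.4 CPM in FaDu (log2FC = 2.51 ± 0.19, adjusted p = 3.0e-09). DUSP6, its cytoplasmic counterpart, overlapped at 103, 133 and 171 CPM in Kyse30 and 93.1, 113, 62.3 and 63.4 CPM in FaDu (log2FC = 0.73 ± 0.18, adjusted p = 0.00249). SPRY1 and SPRY2, Sprouty inhibitors of receptor signalling, did not overlap. SPRY1 was at 21.9, 40.7 and 82.2 CPM in Kyse30 and 15.7, 14.6, 12.2 and 12.4 CPM in FaDu (log2FC = 1.85 ± 0.30, adjusted p = 5.0e-05). SPRY2 was at 8.79, 21.6 and 40.4 CPM in Kyse30 and 8.67, 7.67, 5.32 and 6.10 CPM in FaDu (log2FC = 1.77 ± 0.34, adjusted p = 2.4e-04), where the lowest Kyse30 library was just above the highest FaDu library. SPRED1, an inhibitor that acts on RAS, went the other way at 9.49, 18.5 and 23.9 CPM in Kyse30 and 41.8, 46.8, 45.9 and 52.4 CPM in FaDu (log2FC = -1.41 ± 0.24, adjusted p = 8.4e-05). EPHA4, an ephrin receptor on the list, was at 4.64, 7.85 and 10.5 CPM in Kyse30 and 0.237, 0.895, 0 and 0.207 CPM in FaDu (log2FC = 4.49 ± 0.64, adjusted p = 9.7e-06).

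Of 19 other receptor tyrosine kinases, 9 were higher in Kyse30 and 1 in FaDu. ROR1, a Wnt5a receptor, was at 19.3, 33.2 and 44.7 CPM in Kyse30 and 0.594, 0.767, 0.483 and 0.207 CPM in FaDu (log2FC = 5.98 ± 0.40, adjusted p = 6.9e-10). AXL, the GAS6 receptor, was at 146, 192 and 223 CPM in Kyse30 and 58.4, 49.9, 105 and 93.1 CPM in FaDu (log2FC = 1.30 ± 0.20, adjusted p = 2.1e-05). IGF1R, the receptor of insulin-like growth factors, was at 77.6, 92.03 and 103 CPM in Kyse30 and 34.2, 38.1, 40.8 and 35.6 CPM in FaDu (log2FC = 1.33 ± 0.14, adjusted p = 2.0e-07). No Kyse30 library overlapped a FaDu library in these 3 genes. FGFR2, whose epithelial form binds keratinocyte growth factor, was the gene higher in FaDu at 3.08, 4.26 and 11.5 CPM in Kyse30 and 13.1, 12.4, 17.5 and 17.5 CPM in FaDu (log2FC = -1.31 ± 0.35, adjusted p = 0.00415). FGFR1 was low in both lines and overlapped at 0.223, 2.55 and 6.55 CPM in Kyse30 and 0.475, 0, 0.846 and 0.207 CPM in FaDu (log2FC = 2.87 ± 0.89, adjusted p = 0.0111), and it turned to -1.89 with the FaDu libraries numbered 1 and 2 added.

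EGFR lies on chromosome 7 (55019021 to 55211628 of GRCh38, plus strand), and the genes around it leaned the same way. Of the 14 genes tested within 2 Mb of it, EGFR included, 11 were higher in Kyse30 and 1 in FaDu, and 13 had a log2FC above 0 (median 1.42). SEC61G, the neighbour that encodes a subunit of the protein channel of the endoplasmic reticulum, was at 223, 545 and 670.4 CPM in Kyse30 and 103, 156, 107 and 115 CPM in FaDu (log2FC = 2.12 ± 0.24, adjusted p = 6.0e-07). VOPP1, on the other side, was at 451, 508 and 641 CPM in Kyse30 and 76.9, 59.1, 61.98 and 54.04 CPM in FaDu (log2FC = 3.07 ± 0.15, adjusted p = 1.4e-11), and LANCL2 was at 44.6, 71.1 and 108 CPM in Kyse30 and 37.05, 38.9, 36.97 and 37.6 CPM in FaDu (log2FC = 1.02 ± 0.20, adjusted p = 2.2e-04). PSPH, a serine synthesis phosphatase farther along, was higher in FaDu at 60.3, 69.2 and 80.2 CPM in Kyse30 and 139, 119, 121 and 109.5 CPM in FaDu (log2FC = -0.78 ± 0.13, adjusted p = 5.9e-05). With the FaDu libraries numbered 1 and 2 added, SEC61G had a log2FC of -0.17 and LANCL2 of -1.08. These counts describe position alone, since RNA counts do not measure how many copies of a region a line holds.

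Mesenchymal genes were higher in the line that also held more E-cadherin. Of 24 genes listed for epithelial-mesenchymal transition, 14 were higher in Kyse30 and 3 in FaDu (median 1.45). VIM, vimentin, was at 20.7, 35.5 and 93.4 CPM in Kyse30 and 0.475, 2.81, 0.604 and 0.413 CPM in FaDu (log2FC = 5.42 ± 0.53, adjusted p = 8.6e-08). FN1, fibronectin, was at 25.5, 63.5 and 106 CPM in Kyse30 and 0.831, 2.43, 2.17 and 0.517 CPM in FaDu (log2FC = 5.45 ± 0.45, adjusted p = 9.4e-09). TGFBI, a matrix protein induced by TGF-beta, was at 113, 127 and 159 CPM in Kyse30 and 2.73, 1.92, 2.05 and 1.65 CPM in FaDu (log2FC = 5.99 ± 0.21, adjusted p = 1.5e-13). The lines did not overlap in these genes, and within Kyse30 TGFBI was the steadiest of them. With the FaDu libraries numbered 1 and 2 added, VIM turned to -1.79 and FN1 to -1.70. ZEB1, a repressor of E-cadherin, was near the limit of reading at 0.616, 1.61 and 2.90 CPM in Kyse30 and 0.594, 0.128, 0 and 0.103 CPM in FaDu (log2FC = 2.92 ± 0.87, adjusted p = 0.00826), and did not pass the test once libraries were summed (adjusted p = 0.052). LOXL2, a collagen cross-linking enzyme, was higher in FaDu at 0.892, 2.29 and 3.44 CPM in Kyse30 and 6.29, 12.02, 19.4 and 20.9 CPM in FaDu (log2FC = -2.59 ± 0.39, adjusted p = 2.1e-05). PDPN, podoplanin, a marker of basal and invading squamous cells, had 3 counts in all Kyse30 libraries and was at 3.80, 3.07, 1.93 and 4.03 CPM in FaDu, a ratio of 40.9 (95% counting interval 14.005 to 198). The fibroblast markers summed to 14.5 to 44.2 CPM in Kyse30 and 8.47 to 15.98 CPM in FaDu, and their part in these differences was not tested.

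Of 22 matrix metalloproteinases, their inhibitors and urokinase genes, 13 were higher in Kyse30 and 4 in FaDu (median 1.44). TIMP2, an inhibitor that also helps activate MMP2, was at 103, 152 and 187 CPM in Kyse30 and 1.90, 1.15, 1.81 and 3.93 CPM in FaDu (log2FC = 6.05 ± 0.29, adjusted p = 9.0e-12). TIMP3, an inhibitor bound to the matrix, was at 24.05, 38.1 and 51.1 CPM in Kyse30 and 0.831, 0.511, 1.33 and 1.03 CPM in FaDu (log2FC = 5.33 ± 0.33, adjusted p = 2.3e-10). PLAUR, the urokinase receptor, was at 31.1, 61.99 and 86.8 CPM in Kyse30 and 2.85, 3.71, 1.93 and 2.38 CPM in FaDu (log2FC = 4.53 ± 0.30, adjusted p = 6.1e-10). All 3 were separate between the lines, and TIMP3 turned to a log2FC of -1.54 with the FaDu libraries numbered 1 and 2 added. MMP2, a gelatinase, had 1 count in FaDu and was at 2.20, 4.65 and 6.69 CPM in Kyse30, a ratio of 162 (95% counting interval 29.04 to 6390.3). MMP15, a membrane-bound protease, was higher in FaDu at 0.708, 1.16 and 3.82 CPM in Kyse30 and 16.03, 14.8, 17.3 and 13.7 CPM in FaDu (log2FC = -3.03 ± 0.44, adjusted p = 1.3e-05). Of the 5 genes in the risk score of the study, ITGB4 and FADD were higher in Kyse30 and DDIT4 in FaDu, and TIMP1 and NCEH1 were not called. These 5 genes were chosen by the study partly on libraries of this series. DDIT4, a stress-induced inhibitor of mTORC1, was at 138, 157 and 303 CPM in Kyse30 and 850.1, 832, 545 and 448 CPM in FaDu (log2FC = -1.84 ± 0.22, adjusted p = 1.1e-06). FADD, an adaptor of death receptors, was at 195, 221 and 278 CPM in Kyse30 and 164, 163, 157 and 149.6 CPM in FaDu (log2FC = 0.58 ± 0.13, adjusted p = 0.001). TIMP1 (log2FC = 0.39 ± 0.16, adjusted p = 0.0426) and NCEH1 (log2FC = 0.29 ± 0.24, adjusted p = 0.33), a cholesterol ester hydrolase, overlapped between the lines. CD44, the hyaluronan receptor, was at 303, 335 and 412 CPM in Kyse30 and 16.7, 28.5, 26.8 and 28.2 CPM in FaDu (log2FC = 3.81 ± 0.18, adjusted p = 5.4e-12), and 5 of 7 genes of CD44 and hyaluronan were higher in Kyse30 and 0 in FaDu.

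The TGF-beta and BMP pathway differed at single members more than as a whole, with 14 of 35 genes higher in Kyse30 and 8 in FaDu. SMAD4, the partner that TGF-beta and BMP receptor SMADs share, was read in Kyse30 at 17.9, 20.8 and 25.7 CPM and had 2 counts in the 4 FaDu libraries. The Kyse30 mean was higher by a ratio of 367 (95% counting interval 102 to 3032). Among receptors, TGFBR3, the co-receptor betaglycan, was at 32.3, 39.2 and 46.2 CPM in Kyse30 and 0, 0.383, 0 and 0.103 CPM in FaDu (log2FC = 8.24 ± 0.43, adjusted p = 2.1e-11), with 4 counts in FaDu. The FaDu libraries untreated 1, Fc 1, untreated 2 and Fc 2 held TGFBR3 at 44.8, 2.62, 8.03 and 1.75 CPM. TGFBR1, the signalling receptor, was at 48.5, 64.3 and 86.1 CPM in Kyse30 and 16.6, 26.2, 21.7 and 14.5 CPM in FaDu (log2FC = 1.75 ± 0.21, adjusted p = 1.6e-06). Among ligands, BMP4 was at 35.3, 49.8 and 70.1 CPM in Kyse30 and 0.119, 0.256, 1.69 and 1.24 CPM in FaDu (log2FC = 5.91 ± 0.41, adjusted p = 1.0e-09), and BMP2 went the other way at 0, 0.15 and 0.669 CPM in Kyse30 and 2.73, 2.81, 1.93 and 4.34 CPM in FaDu (log2FC = -3.49 ± 0.83, adjusted p = 0.00162). The lines were separate in each of these genes. The ID genes, BMP targets that block basic helix-loop-helix factors, did not move as one. ID3 was at 82.9, 114 and 151 CPM in Kyse30 and 13.3, 15.6, 12.4 and 13.7 CPM in FaDu (log2FC = 3.10 ± 0.19, adjusted p = 2.4e-10). ID2 was at 1.88, 14.2 and 38.3 CPM in Kyse30 and 0, 0.128, 0.604 and 0.723 CPM in FaDu (log2FC = 5.61 ± 0.77, adjusted p = 7.1e-06). ID1 was higher in FaDu at 71.9, 103 and 205 CPM in Kyse30 and 323, 361, 291 and 290.1 CPM in FaDu (log2FC = -1.32 ± 0.22, adjusted p = 6.6e-05). With the FaDu libraries numbered 1 and 2 added, ID2 had a log2FC of -0.61.

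SMAD4 lies on chromosome 18 (51028394 to 51085045 of GRCh38, plus strand), within a run of 4 consecutive tested genes that the FaDu libraries numbered 3 and 4 hardly read. The FaDu libraries untreated 1, Fc 1, untreated 2 and Fc 2 did read members of the run, with SMAD4 at 10.8, 0.582, 0.238 and 30.01 CPM, ME2 at 14.4, 5.24, 25.9 and 40.7 CPM and MEX3C at 8.01, 8.14, 18.6 and 44.1 CPM. ME2, a mitochondrial malic enzyme, had 3 counts in FaDu and was at 8.16, 10.4 and 29.1 CPM in Kyse30, a ratio of 149.8 (95% counting interval 51.3 to 727). ELAC1, a tRNA-processing enzyme, had 0 counts in FaDu and 2.71, 6.17 and 9.88 CPM in Kyse30, where the mean was at least 16.2-fold higher than 3 counts in a FaDu library would give. MEX3C, an RNA-binding ubiquitin ligase, had 6 counts in FaDu and was at 7.73, 14.03 and 25.3 CPM in Kyse30 and 0.237, 0.383, 0 and 0.103 CPM in FaDu (log2FC = 6.32 ± 0.58, adjusted p = 4.1e-08). Farther out, LIPG, endothelial lipase, had 1 count in FaDu and was at 1.43, 3.59 and 4.34 CPM in Kyse30, a ratio of 110.5 (95% counting interval 19.8 to 4364). Of the 14 genes tested within 2 Mb of SMAD4, 7 were higher in Kyse30 and 2 in FaDu (median 0.90), so the run was shorter than the window.

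Among cell cycle regulators, cyclins D1 and D2 were both higher in FaDu, and the CDK inhibitor genes CDKN1A and CDKN2A went in opposite directions. Of 36 genes of the p53 pathway, D cyclins and CDK inhibitors, 14 were higher in Kyse30 and 9 in FaDu. CCND2, cyclin D2, was at 0, 0.112 and 1.73 CPM in Kyse30 and 188, 195, 209.6 and 249.7 CPM in FaDu (log2FC = -8.97 ± 0.41, adjusted p = 4.1e-12). CCND1, cyclin D1, was higher in FaDu too, at 309, 356 and 417 CPM in Kyse30 and 718, 744, 851 and 866 CPM in FaDu (log2FC = -1.14 ± 0.12, adjusted p = 2.4e-07). CDK6, their kinase, was higher in Kyse30 at 299, 317 and 393 CPM in Kyse30 and 105, 94.5, 54.5 and 60.8 CPM in FaDu (log2FC = 2.10 ± 0.18, adjusted p = 1.9e-08). In FaDu, CDK6 was higher in the libraries numbered 3 than in those numbered 4. CDKN1A, the p53 target p21, was at 103, 153 and 198 CPM in Kyse30 and 15.6, 12.02, 29.6 and 18.2 CPM in FaDu (log2FC = 3.01 ± 0.24, adjusted p = 6.9e-09). TP53INP1, a stress-induced p53 target, had 3 counts in FaDu and was at 11.7, 26.1 and 39.2 CPM in Kyse30, a ratio of 292 (95% counting interval 99.8 to 1414). The FaDu libraries untreated 1, Fc 1, untreated 2 and Fc 2 held TP53INP1 at 11.1, 3.49, 7.03 and 6.85 CPM. SESN2, a sestrin induced by p53 and by ATF4, was higher in FaDu at 21.2, 26.3 and 53.3 CPM in Kyse30 and 197, 236, 301 and 250.1 CPM in FaDu (log2FC = -2.92 ± 0.22, adjusted p = 2.6e-09), so the p53 targets did not all lean one way. CDKN2A, the locus of p16 and p14ARF, was at 31.1, 47.04 and 53.1 CPM in Kyse30 and 109, 108, 58.7 and 62.5 CPM in FaDu (log2FC = -0.87 ± 0.20, adjusted p = 0.00112). MYC was at 4.44, 11.8 and 35.02 CPM in Kyse30 and 48.7, 89.7, 42.04 and 46.3 CPM in FaDu (log2FC = -1.70 ± 0.42, adjusted p = 0.00217), with the Fc 3 library far above the other FaDu libraries. CCND1 lies on chromosome 11 (69641087 to 69654474, plus strand), and of the 33 genes tested within 2 Mb of it 19 were higher in FaDu and 7 in Kyse30 (median -0.85).

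Of 30 proliferation genes, 12 were higher in FaDu and 3 in Kyse30 (median -0.44). Those higher in FaDu were MCM2 to MCM7, CDC6 and GINS2, of DNA replication, and CCNA2, CCNB1, BUB1B and AURKA, of the later cell cycle. MCM5, a subunit of the replicative helicase, was at 33.5, 47.02 and 75.4 CPM in Kyse30 and 139.7, 128, 155 and 188 CPM in FaDu (log2FC = -1.51 ± 0.19, adjusted p = 2.3e-06). MCM4, a further subunit, was at 152, 197 and 248 CPM in Kyse30 and 448, 441, 472 and 549.5 CPM in FaDu (log2FC = -1.21 ± 0.14, adjusted p = 9.5e-07). TYMS, thymidylate synthase, was the reverse at 40.3, 91.2 and 118 CPM in Kyse30 and 22.7, 25.6, 18.8 and 21.9 CPM in FaDu (log2FC = 1.89 ± 0.25, adjusted p = 5.2e-06). The lines did not overlap in these 3 genes.

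Developmental transcription factors differed widely between the lines. Of 49 tested factors known from the foregut and pharynx, 22 were higher in Kyse30 and 13 in FaDu. GATA3, a factor of squamous and luminal epithelia, was at 193, 232 and 278 CPM in Kyse30 and 4.27, 1.28, 4.11 and 5.17 CPM in FaDu (log2FC = 5.99 ± 0.27, adjusted p = 3.2e-12). SOX9, a progenitor factor, was at 154, 195 and 298 CPM in Kyse30 and 31.2, 24.8, 36.001 and 41.4 CPM in FaDu (log2FC = 2.68 ± 0.21, adjusted p = 6.2e-09). The lowest Kyse30 library exceeded the highest FaDu library in both. EYA4, a transcriptional coactivator, had 0 counts in every FaDu library and was at 18.4, 31.3 and 37.3 CPM in Kyse30, at least 77.95-fold higher. Among factors higher in FaDu, PITX1, a factor of the first pharyngeal arch and the hind limb, was at 8.39, 10.8 and 15.7 CPM in Kyse30 and 195, 197, 214 and 260.3 CPM in FaDu (log2FC = -4.23 ± 0.17, adjusted p = 8.8e-13). IRX2, an Iroquois factor, was at 30.8, 38.98 and 50.7 CPM in Kyse30 and 140.5, 131, 157 and 192 CPM in FaDu (log2FC = -1.92 ± 0.16, adjusted p = 1.6e-08). FOXL2, a forkhead factor of the ovary and eyelid, had 2 counts in Kyse30 and was at 22.8, 22.8, 27.7 and 38.03 CPM in FaDu, a ratio of 532 (95% counting interval 147 to 4395). It was at 0.942, 0.291, 0.19 and 0.243 CPM in the FaDu libraries untreated 1, Fc 1, untreated 2 and Fc 2. Squamous transcription factors were mixed, with 7 of 20 higher in Kyse30 and 4 in FaDu. SOX2, a factor of foregut and squamous progenitors, was at 58.7, 131 and 207 CPM in Kyse30 and 46.7, 50.2, 11.5 and 10.3 CPM in FaDu (log2FC = 2.19 ± 0.45, adjusted p = 4.6e-04), and the FaDu libraries numbered 3 held several times the level of those numbered 4. PAX9, a factor of the pharyngeal pouches and the esophagus, was at 1.23, 3.44 and 4.25 CPM in Kyse30 and 32.7, 32.7, 22.8 and 21.6 CPM in FaDu (log2FC = -3.04 ± 0.30, adjusted p = 1.1e-07).

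Of 24 HOX genes tested, which mark position along the body axis, 11 were higher in FaDu and 3 in Kyse30 (median -0.59). The list holds 39 genes, and the others did not pass the filter on low counts. HOXB9 and HOXD11 passed it through FaDu, where they were high, and a call was then nearly certain. The HOX counts are therefore not to be read against the shares of all genes. HOXA9 was at 0, 0.861 and 3.36 CPM in Kyse30 and 23.5, 22.1, 25.2 and 19.6 CPM in FaDu (log2FC = -3.87 ± 0.51, adjusted p = 3.8e-06). HOXA7 was at 7.34, 14.6 and 16.02 CPM in Kyse30 and 51.7, 62.8, 61.5 and 68.7 CPM in FaDu (log2FC = -2.15 ± 0.20, adjusted p = 4.1e-08). HOXB9 was at 0, 0 and 0.885 CPM in Kyse30 and 6.77, 4.09, 8.46 and 5.06 CPM in FaDu (log2FC = -4.70 ± 0.81, adjusted p = 7.8e-05), with 8 counts in all Kyse30 libraries. HOXD11 was at 0, 0 and 0.493 CPM in Kyse30 and 1.78, 3.96, 3.14 and 4.44 CPM in FaDu (log2FC = -4.54 ± 0.85, adjusted p = 1.8e-04), with 5 counts in Kyse30. The 4 genes were separate between the lines. HOXC13, known from hair and nail, was higher in Kyse30 at 4.91, 7.54 and 18.9 CPM in Kyse30 and 1.54, 2.05, 1.69 and 2.27 CPM in FaDu (log2FC = 2.51 ± 0.46, adjusted p = 1.4e-04).

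Some genes were read nearly in one line alone. With at least 5 CPM in every library of one line and at most 3 counts in each library of the other, 79 genes (67 protein-coding) were found in Kyse30 and 51 (39 protein-coding) in FaDu. Of these, 27 had 0 counts in all FaDu libraries and 17 had 0 counts in all Kyse30 libraries. With the FaDu libraries numbered 1 and 2 added, 14 and 2 such genes were left, so the values below hold for the FaDu libraries numbered 3 and 4. INA, alpha-internexin, a neurofilament protein, was at 145, 168 and 213 CPM in Kyse30 and at 0 counts in FaDu, at least 458-fold higher, although the untreated FaDu library numbered 1 held 45.2 CPM. GTSF1, a germline factor of transposon silencing, was at 35.03, 40.5 and 52.3 CPM in Kyse30 and also at 0 counts in FaDu, at least 108-fold higher. NLRP2, an NLR family gene, had 3 counts in FaDu and was at 107, 124 and 161 CPM in Kyse30, a ratio of 1455 (95% counting interval 498 to 7057). The FaDu libraries untreated 1, Fc 1, untreated 2 and Fc 2 held NLRP2 at 0.707, 0.582, 68.2 and 23.9 CPM. In FaDu, PRSS21, the serine protease testisin, was at 189, 215, 226 and 231 CPM with 2 counts in Kyse30, a ratio of 4121 (95% counting interval 1141 to 34027). CASC19, a long noncoding RNA near MYC, was at 139, 122, 124 and 111 CPM with 0 counts in Kyse30, at least 185-fold higher. In the FaDu libraries untreated 1, Fc 1, untreated 2 and Fc 2, PRSS21 was at 2.36, 0.582, 0.428 and 0.631 CPM and CASC19 at 0.707, 0.291, 2.28 and 0.777 CPM. PLIN2, a coat protein of lipid droplets, was at 40.02, 50.5, 43.4 and 44.3 CPM with 0 counts in Kyse30, at least 66.6-fold higher. MGMT, the enzyme that repairs alkylated guanine, was at 31.7, 28.5, 32.98 and 39.1 CPM in FaDu and had 5 counts in Kyse30 (log2FC = -7.78 ± 0.45). All 79 and 51 genes were called, which the rule that picked them made nearly certain. The FaDu libraries untreated 1, Fc 1, untreated 2 and Fc 2 held MGMT at 146, 44.5, 61.8 and 28.7 CPM.

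The promoters of these genes were read for CpG content, which the choice of the genes had not used. Only protein-coding genes were counted. RefSeq promoters of GRCh38.p14 (250 bases before to 50 bases after the start) matched 44 of the 67 of Kyse30 and 26 of the 39 of FaDu. Promoters called CpG-rich here had at least 50% G and C and an observed-to-expected CpG ratio of at least 0.6. They made up 25 of 44 (56.8%) for the genes of Kyse30 and 17 of 26 (65.4%) for those of FaDu, against 7617 of 9201 (82.8%) for all protein-coding genes tested. Of genes that were 4-fold higher in Kyse30 64.0% and of those 4-fold higher in FaDu 75.6% had such promoters. The median number of CpGs was 20 for Kyse30-only genes, 25.5 for FaDu-only genes and 27 for all. DNA methylation was not measured in these libraries. A dense and a sparse promoter are shown for each line, 5′ to 3′ on the strand of the gene, with each CG in capitals. INA (chr10:103276888-103277187, plus strand, 35 CpGs) and MGMT (chr10:129466991-129467290, plus strand, 45 CpGs) have CpG-rich promoters, and GTSF1 (chr12:54473553-54473852, minus strand, 10 CpGs) and PRSS21 (chr16:2816987-2817286, plus strand, 19 CpGs) do not.
INA: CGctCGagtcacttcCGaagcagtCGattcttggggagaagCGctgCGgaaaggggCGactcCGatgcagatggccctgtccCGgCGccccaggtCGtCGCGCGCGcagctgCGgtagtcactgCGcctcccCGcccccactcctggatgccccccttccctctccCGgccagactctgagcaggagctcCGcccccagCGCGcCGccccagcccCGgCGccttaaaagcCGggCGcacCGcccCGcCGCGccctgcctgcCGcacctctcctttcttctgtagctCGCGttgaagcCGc
GTSF1: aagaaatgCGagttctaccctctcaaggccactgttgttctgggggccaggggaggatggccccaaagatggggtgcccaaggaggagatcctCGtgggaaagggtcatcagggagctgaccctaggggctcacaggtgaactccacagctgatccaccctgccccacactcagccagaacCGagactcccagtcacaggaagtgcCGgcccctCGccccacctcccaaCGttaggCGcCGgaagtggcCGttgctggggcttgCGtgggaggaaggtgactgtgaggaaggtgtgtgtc
MGMT: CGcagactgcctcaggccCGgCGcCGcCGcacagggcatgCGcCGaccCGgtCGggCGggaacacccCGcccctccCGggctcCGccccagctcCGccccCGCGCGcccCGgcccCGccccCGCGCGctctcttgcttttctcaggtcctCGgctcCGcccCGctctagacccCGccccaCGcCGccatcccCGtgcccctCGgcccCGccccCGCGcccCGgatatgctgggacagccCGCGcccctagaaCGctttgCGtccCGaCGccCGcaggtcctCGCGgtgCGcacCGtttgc
PRSS21: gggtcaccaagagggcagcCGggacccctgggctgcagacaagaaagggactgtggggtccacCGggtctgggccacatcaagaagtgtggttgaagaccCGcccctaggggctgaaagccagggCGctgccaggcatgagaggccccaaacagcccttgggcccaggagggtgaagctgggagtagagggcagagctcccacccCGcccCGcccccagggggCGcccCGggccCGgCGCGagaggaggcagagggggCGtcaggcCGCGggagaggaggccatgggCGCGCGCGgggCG
The contrast is plain to the eye: INA and MGMT carry CG along the whole stretch, whereas in GTSF1 and PRSS21 most CGs lie in the last part, near the start.

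Most cancer-testis genes, which are normally read in the germ line and often in tumours, did not pass the filter on low counts. Of 54 listed, 8 were tested, of which 6 were higher in Kyse30 and 1 in FaDu. CTAG2, MAGEA10, MAGEB2, MAGEA3, MAGEA6 and PRAME passed the filter through the line in which they were high. A call was then nearly certain, so these counts are not to be read against the shares of all genes. CTAG2, an NY-ESO-1 relative, had 3 counts in FaDu and was at 271, 352 and 503 CPM in Kyse30, a ratio of 4227 (95% counting interval 1447 to 20499.5). MAGEA10 had 1 count in FaDu and was at 69.5, 93.4 and 113 CPM in Kyse30, a ratio of 3124 (95% counting interval 561 to 123409). MAGEB2 had 1 count in FaDu and was at 30.8, 39.98 and 48.1 CPM in Kyse30, a ratio of 1369 (95% counting interval 246 to 54053). MAGEA3 and MAGEA6, near-identical copies whose reads cannot be assigned with certainty, had 0 counts in FaDu. MAGEA4 was not part of this pattern and overlapped at 90.7, 119.9 and 166 CPM in Kyse30 and 111, 144, 155 and 163 CPM in FaDu (log2FC = -0.20 ± 0.16, adjusted p = 0.304). PRAME, a cancer-testis gene on chromosome 22, was the reverse, with 1 count in Kyse30 and 17.1, 21.9, 29.2 and 32.96 CPM in FaDu, a ratio of 968 (95% counting interval 174 to 38235). It was at 0, 1.16, 0.19 and 0.146 CPM in the FaDu libraries untreated 1, Fc 1, untreated 2 and Fc 2.

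Of 38 interferon-stimulated genes, 16 were higher in Kyse30 and 6 in FaDu (median 0.65). SAMD9, an antiviral factor, was at 147, 157 and 269 CPM in Kyse30 and 29.6, 34.002, 33.8 and 31.5 CPM in FaDu (log2FC = 2.54 ± 0.19, adjusted p = 2.6e-09). GBP2, a guanylate-binding protein, was at 17.97, 30.2 and 39.9 CPM in Kyse30 and 1.66, 0.639, 0 and 0.723 CPM in FaDu (log2FC = 5.31 ± 0.48, adjusted p = 3.6e-08). Both were separate between the lines. IRF7, the factor that amplifies type I interferon, was the reverse, with 0 counts in Kyse30 and 6.17, 5.88, 7.61 and 6.92 CPM in FaDu, at least 9.93-fold higher. IFI27 had 3 counts in Kyse30 and was at 5.11, 7.67, 30.6 and 21.2 CPM in FaDu, where libraries numbered 4 held more than those numbered 3. IFITM2, a membrane protein that blocks viral entry, was at 6.19, 8.54 and 16.2 CPM in Kyse30 and 34.4, 36.8, 44.7 and 48.5 CPM in FaDu (log2FC = -2.03 ± 0.24, adjusted p = 1.0e-06); its family members are alike in sequence. Of 18 antigen presentation genes, 5 were higher in each line (27.8%), near the 27.2% and 23.1% of all genes. B2M, the light chain of MHC class I, was at 224, 276 and 358 CPM in Kyse30 and 477, 509, 669 and 780.2 CPM in FaDu (log2FC = -1.05 ± 0.16, adjusted p = 2.0e-05). HLA-B was higher in Kyse30 at 68.2, 85.2 and 149 CPM in Kyse30 and 19.6, 22.2, 36.2 and 43.6 CPM in FaDu (log2FC = 1.71 ± 0.26, adjusted p = 2.3e-05), whereas HLA-C (log2FC = -1.48 ± 0.18, adjusted p = 2.0e-06) was higher in FaDu. Adding the FaDu libraries numbered 1 and 2 brought HLA-B to -0.40. HLA genes are alike and vary between people, so reads of one may have gone to another or to none. Of 21 chemokines, cytokines and receptors, 9 were higher in Kyse30 and 4 in FaDu. CXCL14, a chemokine of normal squamous epithelium, had 2 counts in Kyse30 and was at 9.26, 20.2, 7.37 and 7.75 CPM in FaDu, a ratio of 213 (95% counting interval 59.05 to 1761). It was at 1.41, 0, 0.095 and 1.41 CPM in the FaDu libraries untreated 1, Fc 1, untreated 2 and Fc 2. CXCL8 (log2FC = -3.69 ± 0.78, adjusted p = 6.1e-04) and IL1B (log2FC = -3.91 ± 0.79, adjusted p = 3.9e-04) were higher in FaDu, and CCL5 (log2FC = 4.15 ± 0.72, adjusted p = 8.3e-05) in Kyse30. The immune markers summed to no more than 3.35 CPM in any library.

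Of 29 targets of NRF2, the factor of the oxidative stress response, 8 (27.6%) were higher in Kyse30 and 10 (34.5%) in FaDu. The shares over all genes were 27.2% and 23.1%. SLC7A11, the cystine importer, was at 24.4, 43.4 and 56.97 CPM in Kyse30 and 302, 309, 316 and 302 CPM in FaDu (log2FC = -2.85 ± 0.19, adjusted p = 7.3e-10). AKR1B1, an aldose reductase, was at 3.29, 6.58 and 15.04 CPM in Kyse30 and 117.1, 105, 100.03 and 98.7 CPM in FaDu (log2FC = -3.84 ± 0.29, adjusted p = 3.0e-09). TRIM16, whose copy TRIM16L may share its reads, was the reverse at 146, 175 and 190.3 CPM in Kyse30 and 46.3, 43.97, 44.9 and 49.2 CPM in FaDu (log2FC = 1.91 ± 0.14, adjusted p = 1.4e-09). VEGFA, an angiogenic factor of the hypoxia response, was at 6.90, 9.40 and 18.4 CPM in Kyse30 and 123, 116, 116 and 92.5 CPM in FaDu (log2FC = -3.25 ± 0.25, adjusted p = 4.0e-09), while 9 of 31 glycolysis and hypoxia genes were higher in Kyse30 and 3 in FaDu. Of 19 YAP/TAZ and TEAD genes and targets, 11 were higher in Kyse30 and 1 in FaDu (median 1.22). NT5E, the ectonucleotidase CD73, was at 122, 191 and 306 CPM in Kyse30 and 0.119, 0.383, 2.17 and 0.827 CPM in FaDu (log2FC = 7.88 ± 0.45, adjusted p = 7.0e-11). ANKRD1, a muscle ankyrin repeat protein and YAP target, was at 10.1, 13.9 and 41.7 CPM in Kyse30 and 0, 0, 0.362 and 0.103 CPM in FaDu (log2FC = 7.28 ± 0.70, adjusted p = 7.1e-08). YAP1 itself was not called. Of 19 imprinted genes, 5 (26.3%) were higher in Kyse30 and 7 (36.8%) in FaDu, against 27.2% and 23.1% of all genes. PEG10, a retrotransposon-derived paternally expressed gene, was at 600.01, 694 and 746 CPM in Kyse30 and 40.4, 34.4, 24.6 and 41.8 CPM in FaDu (log2FC = 4.30 ± 0.17, adjusted p = 8.3e-13). GRB10, an adaptor that restrains insulin receptors, was at 0.223, 1.06 and 2.30 CPM in Kyse30 and 144, 141, 119.8 and 111 CPM in FaDu (log2FC = -6.82 ± 0.30, adjusted p = 2.8e-12). Both were separate between the lines in every library.

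Of 25 large ribosomal proteins, 8 (32.0%) were higher in Kyse30 and 1 (4.0%) in FaDu, and of 14 proteasome core genes 4 (28.6%) and 2 (14.3%). The shares of all genes were 27.2% and 23.1%. The Notch list (median 0.59) had 11 of 23 genes higher in Kyse30 and 6 in FaDu, and the Wnt list 10 of 27 and 7. DLL3, an inhibitory Notch ligand, was at 10.3, 21.1 and 30.3 CPM in Kyse30 and 0 counts in FaDu, at least 53.05-fold higher. The FaDu libraries untreated 1, Fc 1, untreated 2 and Fc 2, outside the comparison, held DLL3 at 14.8, 0.291, 26.8 and 39.05 CPM. WNT7B, a Wnt ligand of squamous epithelium, was at 20.1, 35.2 and 42.2 CPM in Kyse30 and 113, 134, 144 and 162 CPM in FaDu (log2FC = -2.02 ± 0.18, adjusted p = 2.2e-08). Of 10 complement genes, 6 were higher in Kyse30 and 2 in FaDu (median 1.59).

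**Figure D3:**
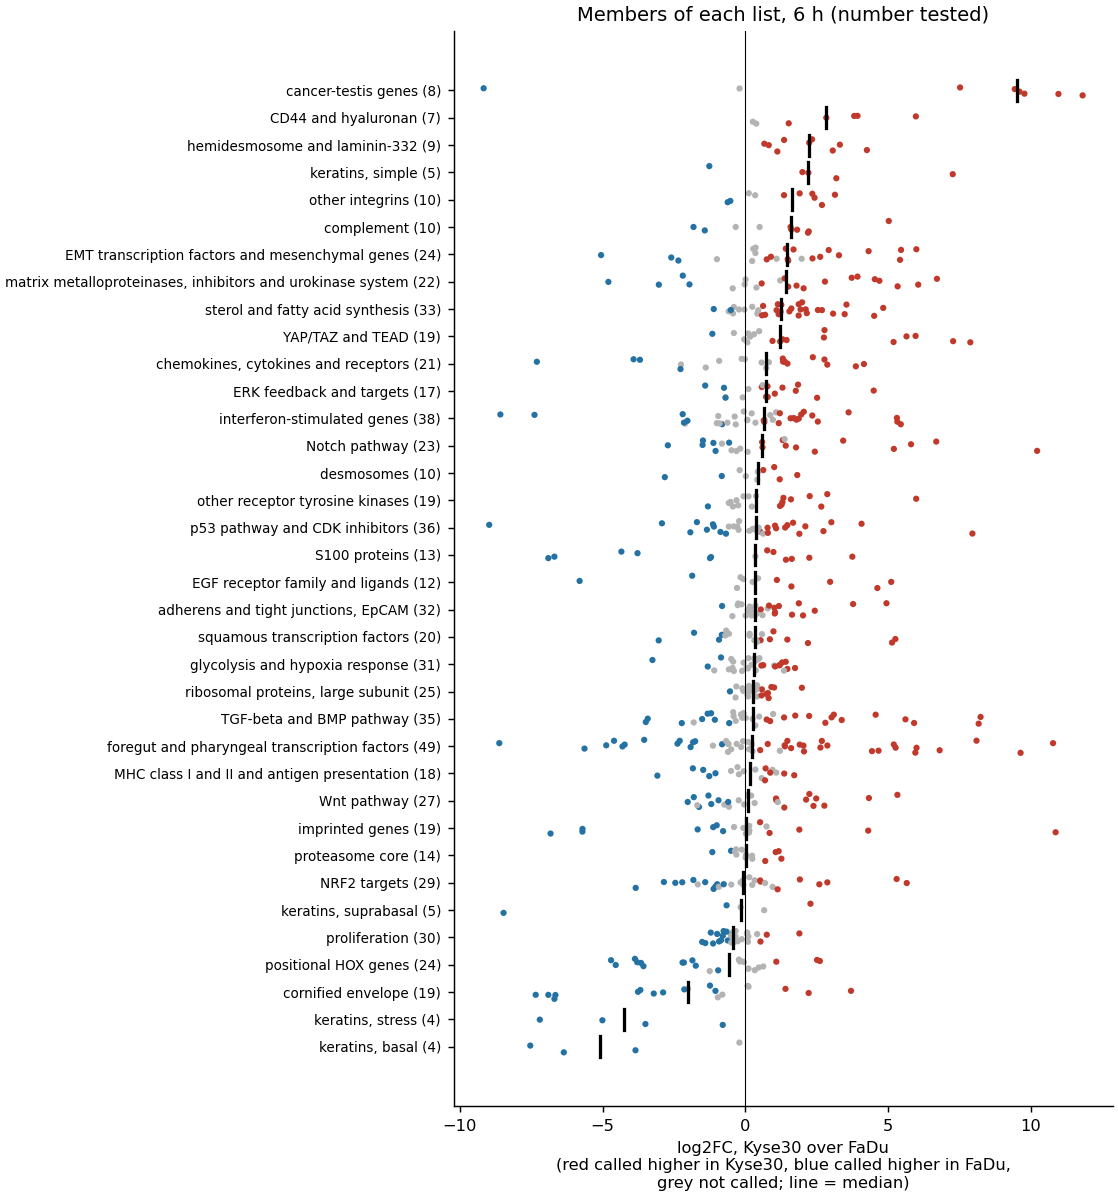
Log2 fold change of Kyse30 over FaDu for every tested gene of each gene list (points, coloured where the gene passed the test) with the list's median (bar). The 9 hemidesmosome genes all lie above 0 (median 2.24) and the 4 basal keratins below it (median -5.10), while genes at 0 counts in one line are drawn at their fitted value, which is no bound.

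Differences also ran along chromosomes. By chromosome, the median log2FC went from -0.61 on chromosome 22 to 0.70 on chromosome 18, where 49.0% of genes tested were higher in Kyse30 and 8.0% in FaDu. Over 12564 overlapping windows of 25 tested genes in genome order, the median log2FC went from -2.63 to 1.85, and in 49 windows all 25 genes were below 0 and in 11 all were above. Neighbouring windows share genes, so these counts are a description. The lowest window was on chromosome 14, from 93182196 to 96945394, where 25 of 25 genes were called higher in FaDu (median -2.63). DICER1, the microRNA-processing enzyme in it, was at 102, 112 and 147 CPM in Kyse30 and 282, 273, 316 and 258 CPM in FaDu (log2FC = -1.26 ± 0.13, adjusted p = 1.4e-07). On chromosome 22, from 43999211 to 46537170, 24 of 25 were called higher in FaDu (median -2.33), WNT7B among them. A further window of chromosome 22, from 40951347 to 42090955, had 22 called (median -1.92), among them EP300, a histone acetyltransferase, at 59.6, 67.9 and 86.3 CPM in Kyse30 and 214, 199.9, 189.9 and 220.4 CPM in FaDu (log2FC = -1.54 ± 0.13, adjusted p = 9.3e-09). On chromosome 9, from 4679559 to 17503923, 24 of 25 were called (median -2.18), among them NFIB, a nuclear factor, at 42.99, 67.8 and 71.3 CPM in Kyse30 and 297, 291, 253 and 247 CPM in FaDu (log2FC = -2.10 ± 0.15, adjusted p = 1.2e-09).

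In the other direction, the window with the highest median was on chromosome 5, from 36098412 to 43067419, where 22 of 25 genes were called higher in Kyse30 (median 1.85). RPL37, a ribosomal protein in it, was at 3362, 4302 and 4808 CPM in Kyse30 and 1260.3, 1235, 1051 and 845 CPM in FaDu (log2FC = 1.98 ± 0.15, adjusted p = 2.9e-09). RICTOR, the defining subunit of mTORC2, was at 35.9, 51.1 and 70.8 CPM in Kyse30 and 28.6, 21.9, 25.2 and 26.2 CPM in FaDu (log2FC = 1.03 ± 0.20, adjusted p = 2.8e-04). LIFR, the LIF receptor, was at 14.7, 18.3 and 18.9 CPM in Kyse30 and 3.21, 2.05, 4.47 and 2.997 CPM in FaDu (log2FC = 2.51 ± 0.28, adjusted p = 5.6e-07). The lines did not overlap in these 3 genes. Windows on chromosome 17 from 8287763 to 15684311 (18 called higher in Kyse30, median 1.79), on chromosome 21 from 5079294 to 28885371 (16 called, median 1.64) and on chromosome 18 from 214520 to 8406861 (12 called, median 1.63) followed. Around FGFR1 on chromosome 8 (38400215 to 38468834, minus strand), 16 of 18 genes within 2 Mb were higher in Kyse30 and 0 in FaDu (median 1.67). ZNF703 there was at 14.9, 19.1 and 29.8 CPM in Kyse30 and 0, 0.256, 0.483 and 0.103 CPM in FaDu (log2FC = 6.57 ± 0.49, adjusted p = 2.6e-09), and ADAM9, a sheddase, was at 44.99, 53.5 and 92.6 CPM in Kyse30 and 13.8, 17.9, 14.5 and 16.4 CPM in FaDu (log2FC = 1.99 ± 0.21, adjusted p = 3.4e-07). ZNF703 turned to -0.15 with the FaDu libraries numbered 1 and 2 added. Around TP63 on chromosome 3 (189631416 to 189897279, plus strand), 8 of 9 genes were higher in Kyse30, and TP63 itself was the gene higher in FaDu.

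**Figure D4:**
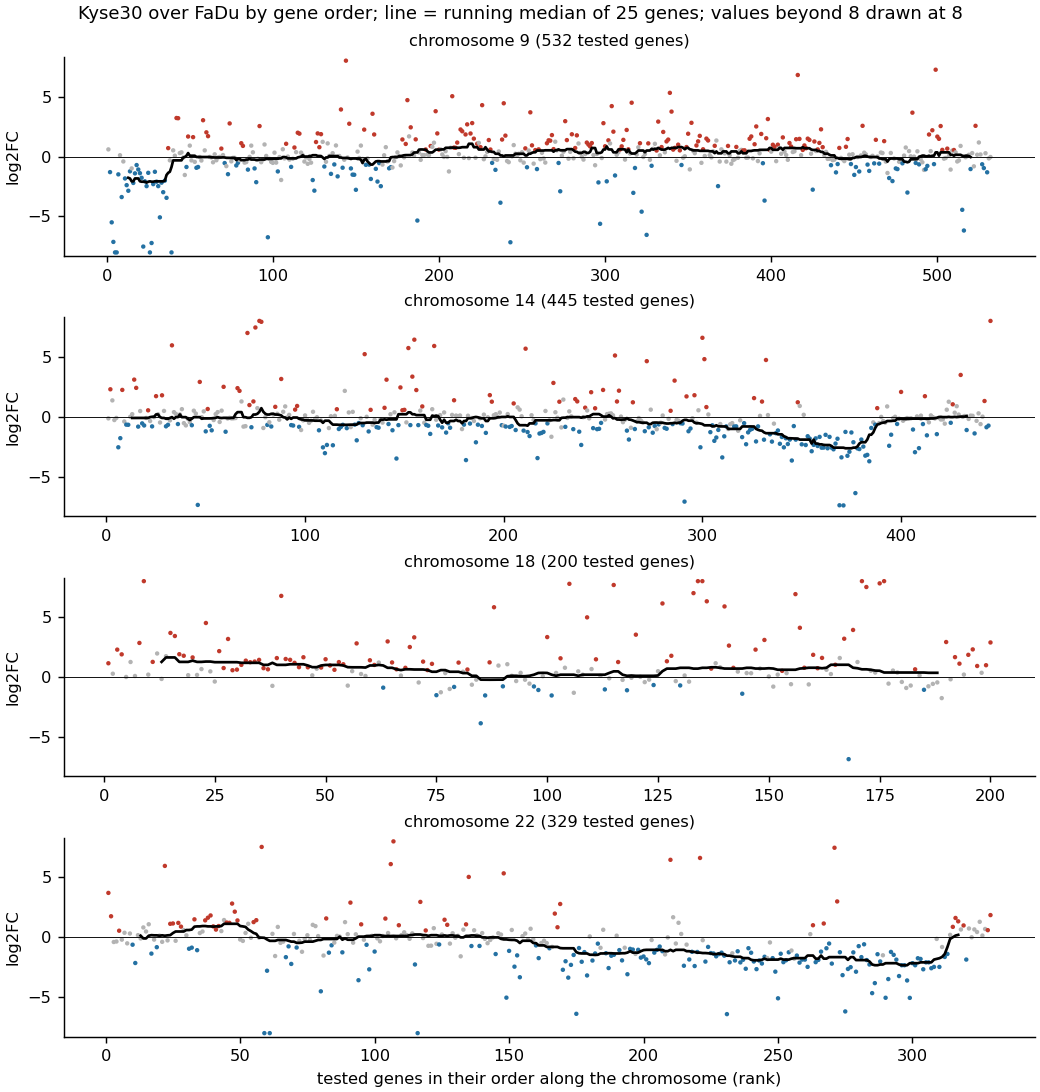
Log2 fold change of Kyse30 over FaDu for tested genes in their order along chromosomes 9, 14, 18 and 22 (points), with the running median of 25 genes (line), where 16 points beyond the axis are drawn at its edge. Long stretches of chromosomes 9, 14 and 22 lie below 0, down to a median of -2.63 on chromosome 14, and chromosome 18 lies mostly above 0.

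Genes of sterol and fatty acid synthesis were for the most part higher in Kyse30 at 6 h and no longer so at 72 h. At 6 h, 23 of 33 genes were higher in Kyse30 and 2 in FaDu (median log2FC 1.23). DHCR7, an enzyme of the last steps of cholesterol synthesis, was at 484, 649.8 and 731 CPM in Kyse30 and 20.7, 20.8, 21.99 and 24.9 CPM in FaDu (log2FC = 4.83 ± 0.17, adjusted p = 1.9e-13). SCD, the stearoyl-CoA desaturase, was at 1189, 1454 and 1759.5 CPM in Kyse30 and 129, 134, 125 and 150.2 CPM in FaDu (log2FC = 3.48 ± 0.15, adjusted p = 2.8e-12). LSS, lanosterol synthase, was at 61.6, 73.02 and 89.7 CPM in Kyse30 and 4.99, 7.03, 7.13 and 6.61 CPM in FaDu (log2FC = 3.54 ± 0.19, adjusted p = 4.2e-11). The lines were far apart in these enzymes, and FaDu libraries were close to each other. FASN, fatty acid synthase, was at 887, 986 and 1159 CPM in Kyse30 and 309.9, 302, 343 and 403 CPM in FaDu (log2FC = 1.61 ± 0.13, adjusted p = 8.6e-09). HMGCS1, which makes HMG-CoA, was at 83.7, 98.1 and 106 CPM in Kyse30 and 24.6, 27.2, 26.9 and 30.3 CPM in FaDu (log2FC = 1.87 ± 0.14, adjusted p = 3.1e-09). None of these overlapped. Among regulators, INSIG1, a sterol-responsive retention protein of the SREBP pathway, was at 109, 139 and 169 CPM in Kyse30 and 18.8, 15.98, 13.05 and 20.5 CPM in FaDu (log2FC = 3.07 ± 0.19, adjusted p = 1.5e-10), and SREBF1, the fatty acid factor, was at 108, 142 and 223 CPM in Kyse30 and 36.9, 46.02, 33.2 and 26.97 CPM in FaDu (log2FC = 2.11 ± 0.20, adjusted p = 8.3e-08). SREBF2, the cholesterol factor, was not called (log2FC = -0.43 ± 0.17, adjusted p = 0.0439). SQLE, squalene epoxidase, overlapped (log2FC = -0.40 ± 0.19, adjusted p = 0.0839), and ELOVL6, a fatty acid elongase, was higher in FaDu (log2FC = -1.11 ± 0.25, adjusted p = 9.6e-04).

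Control libraries of 72 h (6 of Kyse30 and 3 of FaDu, untreated or Fc, in the same serum-free medium) gave a view of the same lines later on. The 3 other FaDu control libraries of 72 h, numbered 1 and 2, were left out as at 6 h. Kyse30 libraries were numbered 1, 2 and 3 at 72 h and 1, 3 and 4 at 6 h, so the times do not hold the same set of numbers. Whether the difference between the lines itself differed between 72 and 6 h was tested as a line-by-time interaction over both times, a test chosen after the data were seen. It called 857 of 15118 genes (5.67%), 364 (2.41%) with a difference larger towards Kyse30 at 72 h and 493 (3.26%) larger towards FaDu. Without the untreated FaDu 72 h library numbered 4 it called 494, and without the Fc one 550. Of the 33 sterol and fatty acid genes, 25 were called and all 25 moved towards FaDu (median log2 difference -1.96, and 22 to 26 called with any 1 library left out). From 6 to 72 h the median log2 change over the list was -0.50 in Kyse30 and 1.39 in FaDu. The summed level of the list was 5099 to 6266 CPM in Kyse30 and 1572 to 1953 CPM in FaDu at 6 h, and 3861 to 4589 CPM and 4624 to 5021 CPM at 72 h. So the ranges of the lines were separate at both times, in opposite order. At 72 h the median log2FC of the list was -0.49.

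INSIG1 averaged 144 ± 26.1 CPM at 6 h and 89.7 ± 20.7 CPM at 72 h in Kyse30 (mean ± SD, n = 6 at each time) and 16.97 ± 3.38 CPM at 6 h and 103 ± 14.2 CPM at 72 h in FaDu (n = 4 and 3), an interaction of -3.27 ± 0.27, adjusted p = 6.4e-09. MVD, mevalonate diphosphate decarboxylase, averaged 39.8 ± 10.6 CPM at 6 h and 24.6 ± 8.35 CPM at 72 h in Kyse30 and 6.80 ± 1.04 CPM at 6 h and 48.6 ± 10.6 CPM at 72 h in FaDu, an interaction of -3.54 ± 0.35, adjusted p = 1.5e-07. SQLE averaged 81.9 ± 23.2 CPM at 6 h and 44.98 ± 3.76 CPM at 72 h in Kyse30 and 108 ± 22.8 CPM at 6 h and 409.6 ± 49.4 CPM at 72 h in FaDu, an interaction of -2.79 ± 0.26, adjusted p = 4.7e-08. In these 3 genes the FaDu level was several times higher at 72 h than at 6 h, and the Kyse30 mean was lower. DHCR7 averaged 628 ± 103 CPM at 6 h and 442 ± 72.7 CPM at 72 h in Kyse30 and 21.97 ± 2.26 CPM at 6 h and 81.5 ± 17.6 CPM at 72 h in FaDu, an interaction of -2.39 ± 0.23, adjusted p = 1.0e-07, so that it stayed higher in Kyse30 at both times. Proliferation genes also moved towards FaDu, with 15 of 30 called in that direction and 0 in the other (median -0.83).

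Outside these lists the differences between the lines were mostly the same at both times. At 72 h, 6339 of 14253 genes (44.5%) were called, 3387 (23.8%) higher in Kyse30 and 2952 (20.7%) higher in FaDu. Of the 6621 genes called at 6 h, 6544 were tested at 72 h, and 6106 (93.3%) had the same direction, against 81.0% of all genes tested at both times. The libraries of both times come from the same lines, so this says nothing of other lines of either tissue. Of the 1961 genes with a 4-fold difference, 1885 were tested and 1851 (98.2%) kept the direction. Of the genes called at 6 h, 4421 were called at 72 h in the same direction and 70 in the opposite one. All 79 Kyse30-only genes, and all 48 of the FaDu-only genes that were tested at 72 h, had the same direction then. EGFR averaged 1717 ± 169 CPM at 6 h and 4311 ± 568 CPM at 72 h in Kyse30 and 559 ± 45.3 CPM at 6 h and 371 ± 53.3 CPM at 72 h in FaDu, an interaction of 1.92 ± 0.19, adjusted p = 1.6e-07, so the gap was wider at 72 h. KRT16 went from a log2FC of -3.4995 at 6 h to -0.90 at 72 h, an interaction of 2.59 ± 0.44, adjusted p = 3.8e-04, and CD44 from 3.81 to 2.19, an interaction of -1.63 ± 0.35, adjusted p = 0.00447. VEGFA and SLC7A11, higher in FaDu at 6 h, had interactions of 3.12 ± 0.40, adjusted p = 9.9e-06 and of 2.60 ± 0.28, adjusted p = 7.7e-07, and neither was called between the lines at 72 h.

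**Figure D5:**
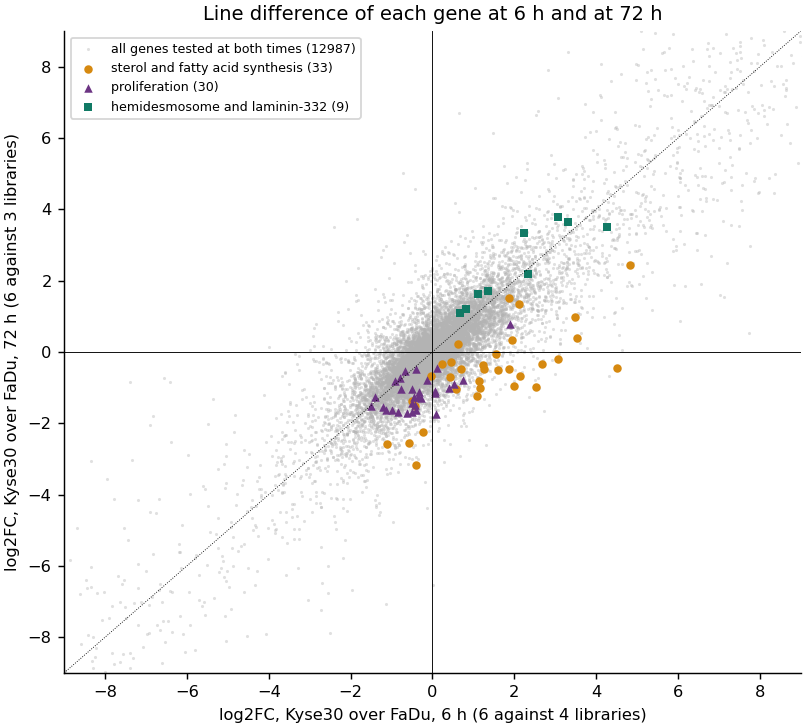
Log2 fold change of Kyse30 over FaDu at 6 h (x axis) against 72 h (y axis) for genes tested at both times, with the sterol and fatty acid, proliferation and hemidesmosome lists coloured (87 genes lie outside the axes). Most genes lie along the diagonal, the 9 hemidesmosome genes are above 0 at both times, and the sterol and fatty acid genes fall below the diagonal.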

How the data were processed

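For each of the 10 libraries the authors deposited whole-number counts of reads per gene, not normalized and not pooled. They came from 3′ libraries (QuantSeq FWD), and the submitters' processing notes name STAR, HTSeq and GRCh38 (hg38). Which annotation release and which strand setting were used, and whether molecular identifiers were counted, is not given in the sources used here. Without a known strand setting, reads of a gene and an antisense partner cannot be told apart. Reads that matched several places had been left out of gene counts by the authors, which lowers counts of gene families. Tallies given to no gene stayed out of all fits: reads falling in no gene made up 5.99 to 8.46% of a library's reads and ambiguous ones 0.734 to 0.976%. Symbols and coordinates came from GENCODE 29 by Ensembl identifier (58275 of 58395), and promoter sequences from RefSeq. The lists and named genes were chosen with earlier results of these data known. Some members of the lists are not reported here singly.

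Genes were kept by filterByExpr (minimum count 10, total 15) and tested between the 6 and 4 libraries with no covariate, by the quasi-likelihood test of edgeR (version 4.0.16, R 4.3.3) on TMM-scaled counts. P-values were adjusted by Benjamini-Hochberg over all genes. Standard errors were derived from that test, as the absolute log2 fold change divided by the square root of its F statistic. Calls had to reach 0.05 or less after adjustment and exceed 0.5 in absolute log2 fold change. The study used DESeq2 with the same thresholds. The scripts were tested on simulated data. CPM are on TMM-scaled library sizes. Where a line had 0 counts, a lower bound was set against 3 counts per library. With 1 to 3 counts a ratio of CPM is given with its exact 95% Poisson interval. Intervals and floors cover counting error only. A library's 3 counts correspond to 0.312 to 0.660 CPM. No 2 libraries were identical.

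Genes named are, for each list, the called members of largest log2 fold change and those of highest level, the 10 largest in each direction at 20 CPM or more without overlap, the 10 highest of the genes of one line, genes within 2 Mb of chosen loci and leading genes of the 5 highest and 5 lowest windows. Alternatives were DESeq2 1.42.0, RLE, upper-quartile and library-size scaling, no filter, a mean of at least 5 CPM, treatment as covariate, the replicate number as a block, either treatment alone, their sums, thinning, FaDu replicates 1 and 2 added, and each library or number left out. FaDu replicates 1 and 2 were left out of the comparison by its definition. Figures were drawn with matplotlib 3.10.9.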

Additional observations from a re-analysis of the deposited data

Results flagged for a closer look

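Of the named genes, 324 groups of libraries (a gene in a line) were ranked for a single library standing off from the rest, by its gap to the nearest library over the range of the group. It exceeded Dixon's 95% critical value in 16 groups, 11 of Kyse30 and 5 of FaDu, and chance gives about 1 in 20. In Kyse30 the untreated library numbered 1 was high for KRT5 (0.784), KRT6B (0.81), VIM (0.641) and EP300 (0.63), and the Fc library numbered 1 was high for ME2 (0.849) and CCND2 (0.693) and low for KRT7 (0.658). HOXA7 was low in Fc 4 (0.642), PAX9 low in untreated 3 (0.685), DICER1 high in untreated 3 (0.708) and LIFR low in Fc 3 (0.716). In FaDu the Fc library numbered 3 was high for KRT1 (0.892), VIM (0.92), MYC (0.861) and CXCL14 (0.852). CD44 was low in untreated 3 (0.857). None of these libraries brought the lines to overlap, and the cause was not tested.

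The difference between the lines changed between 6 and 72 h for further named genes in the line-by-time interaction, a test chosen after the data were seen. Values are the log2 difference at 72 h less that at 6 h. Among sterol and fatty acid genes these were DHCR7 (-2.39), SCD (-2.49), LSS (-3.15), INSIG1 (-3.27), FASN (-2.12), HMGCS1 (-2.34), SREBF2 (-1.08), ELOVL6 (-1.49), SQLE (-2.79), IDI1 (-2.83), MVD (-3.54) and ACACA (-0.87). Other genes that shifted towards FaDu were KRT8 (-1.03), KRT18 (-1.27), SFN (-1.38), KRT15 (-1.72), ITGA2 (-1.06), NRG4 (-5.15), TIMP2 (-1.30), NCEH1 (-1.51), FADD (-0.62), CD44 (-1.63), TGFBR3 (-3.35), TP53INP1 (-3.51) and NT5E (-3.01). Those that shifted towards Kyse30 were KRT16 (2.59), S100A8 (2.52), DMKN (0.96), ITGA6 (0.72), CLDN1 (1.41), EGFR (1.92), AREG (1.39), IGF1R (0.81), FN1 (3.48), LOXL2 (2.31), TIMP3 (2.57), TGFBR1 (1.14), ID1 (2.48), SESN2 (2.73), GATA3 (1.52), PITX1 (1.06), IFI27 (6.54), HLA-B (2.39), HLA-C (1.72), VEGFA (3.12) and SLC7A11 (2.60).

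The FaDu control libraries numbered 1 and 2 at 6 h are outside the comparison. Of the 79 genes read in Kyse30 and nearly unread in the FaDu libraries compared, 47 reached 1 CPM in untreated 1, 29 in Fc 1, 38 in untreated 2 and 39 in Fc 2. Of the 51 genes read in FaDu and nearly unread in Kyse30, 30, 24, 28 and 25 did so in the same libraries. The cause was not tested.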

How the results depend on the processing

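Against the 6621 genes called, other scalings, DESeq2, treatment as a covariate and no filter gave 6546 to 7779. Leaving out 1 library gave 6218 to 6626 (4-fold or more: 1866 to 2070, against 1961). Without number 1, 3 or 4 in both treatments and lines the counts were 6604, 5177 and 5128. A mean of at least 5 CPM gave 5459. Calls shared with the reported set had the same direction in every setting. Adding FaDu replicates 1 and 2 gave 2949 (1153 higher in Kyse30 and 1796 in FaDu), 823 at 4-fold and 3271 at 72 h, and moved the median log2FC of all genes to -0.11. At 4-fold, no filter gave 3172 and a mean of at least 5 CPM 1081. Untreated libraries alone gave 4701 and Fc libraries alone 4503. Summing untreated and Fc libraries of a number gave 5891. Some list counts then fell by over 1.5 times. In FaDu these were ERK targets and glycolysis (3 to 1) and EGF receptor genes, desmosomes, other integrins and the proteasome (2 to 1). In Kyse30 imprinted genes fell from 5 to 3. Same-numbered untreated and Fc libraries of a line deviated together (0.323 to 0.399), and those of different lines at -0.133 to 0.1264, so a replicate block joins libraries that share only a number between lines: it gave 6655 calls, 2028 at 4-fold. At 72 h, leaving out 1 library gave 5106 to 6636 (against 6339), and for the change between times 494 to 1032 (against 857), and DESeq2 gave 1235. Genes of one line (130) numbered 160 after thinning to the shallowest library, 44 at 0 counts, 369 at 1 CPM and 16 with FaDu replicates 1 and 2. They numbered 133 to 146 with 1 library left out. Every library has to meet the rule, so leaving out a library can only keep or raise the count. Adding libraries can only keep or lower it. Of 191 named genes 182 were called. Of these, 162 were called in the same direction in every setting that tested them, other than adding FaDu replicates 1 and 2. A named gene that a setting's filter dropped is not counted for that setting. The counts with FaDu replicates 1 and 2 added therefore do not reach 191. With those added, 95 kept their call or lack of it, 66 lost it, 1 gained it and 16 turned in direction: SERPINB5 (-0.16), LAMA3 (-0.82), LAMB3 (-0.16), AREG (-1.48), ERBB2 (0.093), VIM (-1.79), FN1 (-1.70), TIMP3 (-1.54), NCEH1 (-0.63), ID2 (-0.61), MAGEA4 (0.77), HLA-B (-0.40), SEC61G (-0.17), LANCL2 (-1.08), FGFR1 (-1.89) and ZNF703 (-0.15). NCEH1 turned to -0.021 without number 3. The cause of these shifts was not tested. Genes with few counts in a line are limited by depth: 3 counts correspond to 0.312 to 0.660 CPM.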
